A study of Mus musculus with 4 samples.

Results

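Tcf7, Lef1, Satb1 and Id3 encode 4 nuclear factors associated with the naive and memory-like states of T cells, and their surroundings were examined here in ATAC-seq peak lists of mouse CD4 T cells. The 4 lists were merged wherever peaks overlapped by at least 1 bp, and a merged region was given to 1 of the 4 genes when that gene was the nearest protein-coding RefSeq gene within 100 kb of the region midpoint. This gave 98 regions of 97394 in all, with 23 at Tcf7, 36 at Lef1, 26 at Satb1 and 13 at Id3. In ATAC-seq a transposase cuts and tags open chromatin, and a peak marks a stretch with more tags than its background.

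The KO group consisted of 2 libraries, KO-1 and KO-2, from Tox-deficient SMARTA CD4 T cells sorted as CD4+, Ly5.1+, Ly5.2-, PD1lo, LAG3lo and CD39lo. The WT group consisted of 2 libraries, WT-1 and WT-2, from Tox-sufficient SMARTA CD4 T cells sorted as CD4+, Ly5.1+, Ly5.2+, PD1hi, LAG3hi and CD39hi. Every SMARTA cell carries the same transgenic T cell receptor, which recognizes the GP61 peptide. In both groups naive donor cells were given to mice bearing B16-GP61, a melanoma line made to present that peptide, after the hosts had received cytoxan (cyclophosphamide, which kills dividing lymphocytes), and on day 11 the tumor-draining lymph node was taken for the sort. Genotype, the level of the 3 sorted surface receptors and the Ly5 marker all separate the groups in the same way, so their parts in any difference cannot be told apart. The labels do not give the allele behind the KO, the age of the mice, or whether the replicates are separate or pooled animals, so the spread between replicates may be technical.

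TCF-1, the product of Tcf7, and LEF-1 are related proteins that bind DNA through a high mobility group box and act with β-catenin as an activator or with TLE proteins as corepressors. Naive T cells hold high levels of both, and after activation the cells that keep TCF-1 are the ones known for memory, follicular helper and stem-like fates, while effector cells lose it. SATB1 folds chromatin into loops, is abundant in thymocytes and naive T cells, and is known in mouse T cells to repress Pdcd1, the gene of PD-1. ID3 lacks a DNA-binding region of its own and holds E proteins such as E2A and HEB away from DNA; it is known for naive, memory and follicular helper cells, whereas its relative ID2 is known for effector cells. Lef1 and Id3 are also used by cells of the B lineage.

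RefSeq promoter windows are shown here because the starts of these genes differed in whether any library had a peak on them. Each runs from 250 bases before to 50 bases after an annotated start on GRCm38.p6, 5′ to 3′ on the gene's own strand, and 12 such windows matched the 4 genes, with 2 for Tcf7, 4 for Lef1, 5 for Satb1 and 1 for Id3. Capitals mark matches on either strand to CTTTGA (reverse complement TCAAAG), the core bound by TCF and LEF proteins, and to the E boxes CAGCTG and CAGGTG (reverse complement CACCTG) bound by E proteins. They are Tcf7 start 1 (chr11:52282965-52283264, minus strand), Lef1 starts 1, 3 and 4 (chr3:131110047-131110346, chr3:131112541-131112840 and chr3:131156044-131156343, plus strand), Satb1 start 3 (chr17:51826539-51826838, minus strand) and the Id3 start (chr4:136143572-136143871, plus strand).
Tcf7 start 1: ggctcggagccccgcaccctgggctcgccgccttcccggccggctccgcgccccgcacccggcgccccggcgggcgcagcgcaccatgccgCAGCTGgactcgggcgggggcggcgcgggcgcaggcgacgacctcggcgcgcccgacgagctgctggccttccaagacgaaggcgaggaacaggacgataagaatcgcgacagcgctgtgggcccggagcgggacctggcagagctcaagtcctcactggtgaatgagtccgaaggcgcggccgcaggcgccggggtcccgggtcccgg
Lef1 start 1: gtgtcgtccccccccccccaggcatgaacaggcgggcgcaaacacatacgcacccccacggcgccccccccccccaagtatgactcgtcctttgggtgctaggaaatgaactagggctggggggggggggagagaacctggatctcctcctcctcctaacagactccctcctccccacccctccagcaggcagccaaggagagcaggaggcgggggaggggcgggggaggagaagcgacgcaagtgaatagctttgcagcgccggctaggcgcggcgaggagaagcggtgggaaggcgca
Lef1 start 3: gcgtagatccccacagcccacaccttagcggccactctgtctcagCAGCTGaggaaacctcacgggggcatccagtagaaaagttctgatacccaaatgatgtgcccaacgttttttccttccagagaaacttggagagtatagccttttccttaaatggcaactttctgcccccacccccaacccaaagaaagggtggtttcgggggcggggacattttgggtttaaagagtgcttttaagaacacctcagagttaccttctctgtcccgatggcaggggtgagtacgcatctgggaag
Lef1 start 4: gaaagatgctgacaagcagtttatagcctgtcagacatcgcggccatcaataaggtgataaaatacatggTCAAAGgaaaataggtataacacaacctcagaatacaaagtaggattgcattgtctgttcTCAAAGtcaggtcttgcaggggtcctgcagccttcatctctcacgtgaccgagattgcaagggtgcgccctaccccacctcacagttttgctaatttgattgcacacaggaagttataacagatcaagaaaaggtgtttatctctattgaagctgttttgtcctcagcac
Satb1 start 3: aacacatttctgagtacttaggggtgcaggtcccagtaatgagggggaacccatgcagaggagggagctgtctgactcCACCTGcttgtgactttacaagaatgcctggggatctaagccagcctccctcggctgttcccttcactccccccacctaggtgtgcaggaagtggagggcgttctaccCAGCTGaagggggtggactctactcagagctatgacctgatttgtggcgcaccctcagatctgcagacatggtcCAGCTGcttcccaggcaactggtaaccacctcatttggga
Id3 start: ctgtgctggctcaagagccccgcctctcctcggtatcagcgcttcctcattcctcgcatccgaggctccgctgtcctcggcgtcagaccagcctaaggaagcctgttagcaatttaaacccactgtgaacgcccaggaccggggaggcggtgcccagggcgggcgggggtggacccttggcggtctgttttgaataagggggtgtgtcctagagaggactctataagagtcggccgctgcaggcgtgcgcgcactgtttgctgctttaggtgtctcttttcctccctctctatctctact

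CTTTGA was found in 1 of the 12 windows, against 16% of all 32851 windows in the table. That window is Lef1 start 4, whose 2 matches begin 180 and 120 bases before the start, and no library had a peak on it. CAGCTG was found in 3 of the 12 (16.3% of all windows), which are those of Tcf7 start 1, Lef1 start 3 and Satb1 start 3, and CAGGTG in 4 of the 12 (20.2%). The ETS core GGAAG stood in 11 of the 12 (71.4%), and the RUNX core TGTGGT (16.8%) and the AP-1 site TGAGTCA (5.20%) in none. GC content ran from 43.7% at Lef1 start 4 to 76.7% at Satb1 start 2, against a median of 52.7% over all windows. A match describes letters in a window and not binding. Both Tcf7 windows lie wholly inside the gene's RefSeq interval, which on the minus strand begins at 52283383. Their matches therefore lie within that interval and not before it.

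KO-1 and KO-2 held 43078 and 61773 peaks, against 56852 and 61489 in WT-1 and WT-2, and KO-1 was the shortest list. Between 1603 and 1900 peak numbers are missing from each list, so an absent peak can be one that was removed before deposit. As a check of the genotype, the region over the upper end of Tox (chr4:6990165-6991572) had no peak in KO-1 or KO-2, and 1 and 2 peaks in WT-1 and WT-2 with fold enrichments up to 6.57 and 7.12. All 12 T cell marker genes of the list used here, among them Cd3e, Cd4 and Lck, had a peak in every library. B cell genes did not: 11 and 19 of the 125 regions at 12 B cell markers had a peak in KO-1 and KO-2, against 95 and 103 in WT-1 and WT-2, and Fcer2a and Ms4a1 were among the marker genes with no peak in either KO library. Myeloid and dendritic cell markers had a peak in 28 and 42 of 89 regions in KO-1 and KO-2, against 64 and 70 in WT-1 and WT-2. Melanocyte markers had a peak in 7 and 13 of 17 regions in KO-1 and KO-2, against 8 in each WT library, and Dct and Sox10 had none. In such bulk libraries a difference in the share of cells of a type and a difference in accessibility per cell cannot be told apart.

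The strongest regions of the 4 genes had a peak in every library of both genotypes, and the number of regions with a peak did not separate the genotypes. Of the 98 regions, 52 and 65 had a peak in KO-1 and KO-2, against 59 and 61 in WT-1 and WT-2. The mean was 58.5 ± 9.19 regions in KO and 60.0 ± 1.41 in WT (SD, n = 2 each), a difference of −1.5 regions that is smaller than the spread between the KO libraries (exact two-sided permutation test, p = 1.0; 2 against 2 libraries cannot give a p below 0.33). The KO libraries lay on both sides of the WT pair, and without KO-1 the difference was 5.0 regions. A peak in all 4 libraries, called shared from here on, was found in 36 of the 98 regions (36.7%), against 27.6% of all regions. Another 41 of the 98 (41.8%) had a peak in a single library, against 48.4% of all regions. Shared regions were wider, with a median of 798.5 bp at the 4 genes, than regions not shared, with a median of 238.5 bp, as they were across the series (851 and 227 bp).

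Regions with a peak in both libraries of 1 genotype and neither of the other were few and weak. KO-only regions numbered 3 of 98 (3.06%), against 1.78% of all regions, and lay at Satb1 (2) and Tcf7 (1). WT-only regions numbered 7 of 98 (7.14%), against 8.80% of all regions, with 4 at Lef1 and 1 at each of Tcf7, Satb1 and Id3. Both shares differed from the background by fewer than 2 regions of the 98. The 3 KO-only regions all lay upstream of their gene, and 5 of the 7 WT-only regions lay inside one. Their deposited fold enrichments, which compare a peak with the background of its own library, were 2.40 to 3.46 in KO-only and 2.31 to 3.60 in WT-only regions. These stood in the weaker part of each list, at the 2.26 to 32.9 percentile for KO-only and the 2.28 to 44.8 percentile for WT-only regions, and the medians over all such regions in the series were 36.8 and 44.2. The counts moved with single libraries: KO-only regions numbered 19 of 93 without KO-1 (20.4%, against 22.3% of all regions), 8 of 85 without KO-2 (9.41%, against 11.8%), 5 of 88 without WT-1 (5.68%, against 2.84%) and 7 of 92 without WT-2 (7.61%, against 3.80%), since 3 libraries then decide the class. WT-only regions numbered 16 of 88 without WT-1 (18.2%, against 24.2%) and 18 of 92 without WT-2 (19.6%, against 20.9%). Among peaks of −log10 q of at least 5, WT-only regions were further below the share over all regions, with 2 of 58 (3.45%, against 13.5%), and KO-only regions numbered 1 (1.72%, against 2.19%). The KO-only share was above that of all regions at a −log10 q of at least 10, with 2 of 39 (5.13%, against 1.85%). It was also above it among the 20000 strongest peaks of each library, with 3 of 28 (10.7%, against 6.77%).

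**Figure D1:**
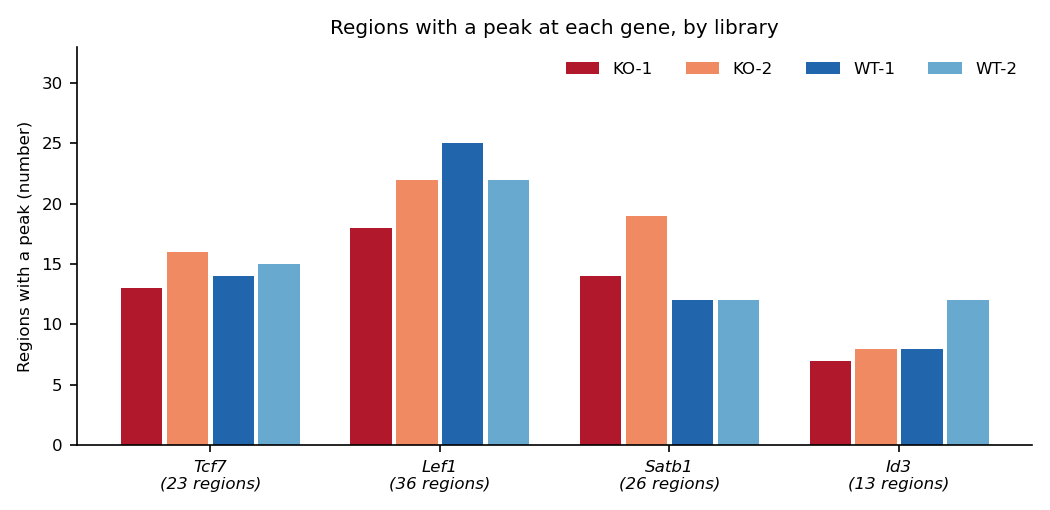
Number of merged regions with a peak (y axis) at each of the 4 genes, 1 bar per library, with KO libraries in red tones and WT libraries in blue tones and the number of regions of each gene under its name. At Satb1 the KO bars (14 and 19) stand above both WT bars (12 each), and at the other 3 genes the KO and WT bars overlap or touch.

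By gene, the counts of regions with a peak overlapped or touched between the genotypes at Tcf7, Lef1 and Id3 and did not overlap at Satb1. Tcf7 had 13 and 16 in KO-1 and KO-2, against 14 and 15 in WT-1 and WT-2. Lef1 had 18 and 22 in the KO libraries, against 25 and 22 in the WT libraries. Satb1 had 14 and 19 regions in the KO libraries, against 12 in each WT library. Of 2120 genes with at least 10 regions, 6.51% had both KO counts above both WT counts, as Satb1 had, and 35.9% had both WT counts above both KO counts. Of the 26 Satb1 regions 7 had a peak in KO-2 alone (26.9%, against 18.8% of all regions), most of them inside the gene or beyond its end. Id3 had 7 and 8 in the KO libraries, against 8 and 12 in the WT libraries, and WT-2 stood above the other three.

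Strength was compared over the 36 shared regions. Raw fold enrichment cannot be set side by side between libraries, because KO-2 held the highest fold in 24 of the 36 (66.7%) and in 64.0% of the 26867 shared regions of the series. Each region was therefore ranked by its highest fold within the 26867 shared regions of the same library, as a percentile. The 36 regions spanned nearly the whole range, from 0.153 to 85.4 in KO-1 and from 0.301 to 92.8 in KO-2, against 0.231 to 86.2 in WT-1 and 0.0968 to 88.3 in WT-2. Their median percentiles were 37.6 and 38.7 in KO-1 and KO-2, against 31.0 and 34.1 in WT-1 and WT-2, so the typical shared region of these genes stood below the middle of all shared regions in every library.

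Both KO percentiles lay above both WT percentiles in 14 of the 36 shared regions (38.9%), against 22.0% of all shared regions. Both WT percentiles lay above both KO percentiles in 7 of the 36 (19.4%), against 24.0% of all shared regions. The remaining 15 overlapped. The KO-higher regions numbered 2 at Tcf7, 6 at Lef1, 2 at Satb1 and 4 at Id3, and the WT-higher regions 2, 2, 2 and 1 at the same genes. Across the 36, the mean KO percentile minus the mean WT percentile had a median of 3.23 points and was above 0 in 22 (61.1%), against a median of −0.41 points and 47.8% over all shared regions. In 7 of the 14 KO-higher and 2 of the 7 WT-higher regions the nearest KO and WT libraries were less than 3 points apart. Of all shared regions, 16.7% were KO-higher by at least 2.52 points, against 22.0% KO-higher by any gap. Near ties thus made up more of the 14 than of all KO-higher shared regions. KO-higher regions lay upstream (6), inside the gene (6) and on a start (2), while 5 of the 7 WT-higher regions lay upstream. The WT-higher count was 12 of 38 without KO-2 (31.6%, against 38.3% of all shared regions) and 14 of 41 without WT-1 (34.1%, against 35.1%). Among peaks of −log10 q of at least 5, the KO-higher share was nearer that of all shared regions, with 7 of 25 (28%, against 21.2%), and 4 of 25 ranked higher in WT (16%, against 23.6%). Stricter settings did not bring it nearer still. At a −log10 q of at least 10, 6 of 17 ranked higher in KO (35.3%, against 20.2%) and 2 in WT (11.8%, against 22.8%). Among the 20000 strongest peaks of each library, 6 of 14 ranked higher in KO (42.9%, against 19.7%) and 1 in WT (7.14%, against 21.2%). B cell marker genes, whose part in these counts was not tested, had 0 KO-higher and 6 WT-higher regions among 8 shared.

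**Figure D2:**
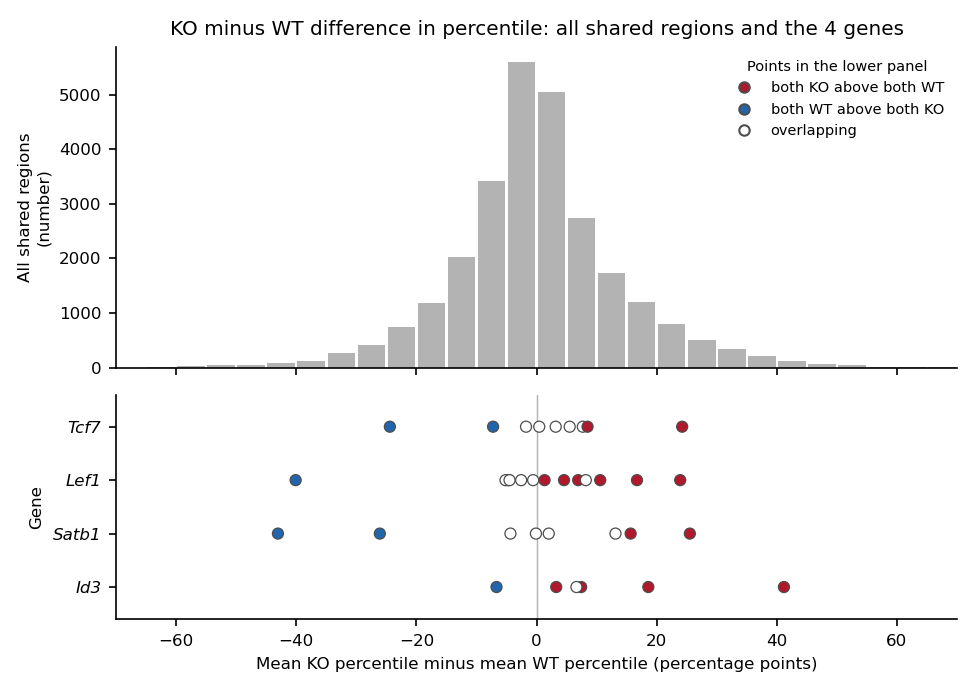
Mean KO percentile minus mean WT percentile of the deposited fold enrichment (x axis, percentage points), as a histogram over all 26867 shared regions (upper panel, number of regions) and as 1 point per shared region of each gene (lower panel; red for both KO above both WT, blue for the reverse, white for overlapping). Most points of the 4 genes lie within the bulk of the histogram, and Lef1 and Satb1 have a blue point at −40.1 and −43.1 and Id3 a red point at 41.2.

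Tcf7 (chr11:52246527-52283383, minus strand) had 9 shared regions, and its strongest stood upstream of the gene. The first of these, 16.8 kb upstream of the first start (chr11:52299403-52300222), had fold enrichments of 9.52 and 17.0 in KO-1 and KO-2, against 12.2 and 11.9 in WT-1 and WT-2. Its percentiles were 83.1 and 92.8 in the KO libraries, against 80.9 and 77.9 in the WT libraries. It ranked high in all 4, with the KO libraries above by only 2.13 points at their nearest, a gap that 17.3% of all shared regions reached in the same direction. The next, 31.3 kb upstream (chr11:52313792-52314923), where the interval of the lncRNA gene Gm30217 also lies, had percentiles of 74.6 and 63.0 in the KO libraries, against 54.7 and 67.5 in the WT libraries, which overlapped. The third by rank, 17.1 kb inside the gene (chr11:52265542-52266318), had 41.3 and 48.0 in the KO libraries, against 44.5 and 43.9 in the WT libraries.

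The start of Tcf7 was open in every library. A region of chr11:52282486-52284073 covered both annotated starts, including the window printed above, with fold enrichments of 4.70 and 4.33 in KO-1 and KO-2, against 3.49 and 5.33 in WT-1 and WT-2. The percentiles overlapped, at 44.1 and 11.7 in the KO libraries against 10.8 and 34.0 in the WT libraries. Relative to the first start its summit lay at −397 bp in KO-1 and −415 bp in KO-2, against 223 bp in WT-1 and −392 bp in WT-2, so WT-1 stood apart. That first start (52283014) lies inside the gene's interval, which on the minus strand begins upstream of it, at 52283383. The summits of KO-1, KO-2 and WT-2 lie nearer to that beginning than to the first start. Between this start and the strong upstream region, 2 neighbouring regions went opposite ways. The region 11.2 kb upstream (chr11:52293886-52294590) had percentiles of 29.7 and 42.5 in the KO libraries, against 17.8 and 5.93 in the WT libraries, a gap reached by 6.75% of all shared regions. The region 14.5 kb upstream (chr11:52297440-52297669) had 1.56 and 13.4 in the KO libraries, against 35.3 and 28.5 in the WT libraries, a gap reached by 4.17%. A weaker region 35.6 kb upstream also ranked higher in WT, at 0.542 and 2.17 in the KO libraries against 6.59 and 10.6 in the WT libraries. The KO-only region lay 1.2 kb upstream (chr11:52284128-52284292; folds 2.40 in KO-1 and 2.75 in KO-2), and next to it, 1.4 kb upstream, another narrow region had a peak in KO-2 and both WT libraries. The WT-only region lay 20.9 kb inside the gene (chr11:52261999-52262241; folds 2.50 in WT-1 and 2.31 in WT-2).

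**Figure D3:**
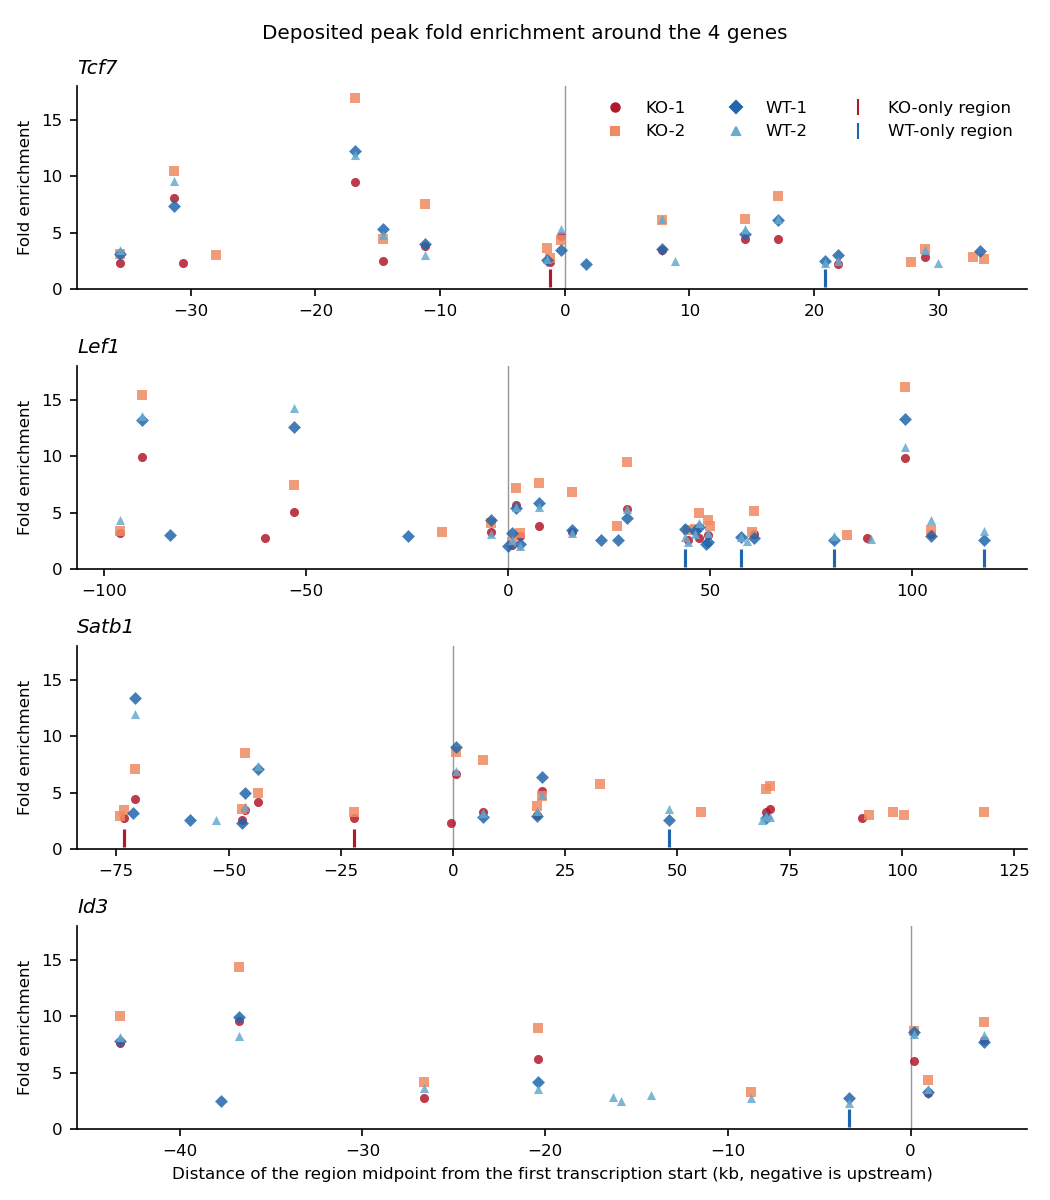
Deposited fold enrichment of each peak region (y axis) against the distance of its midpoint from the gene's first annotated start (x axis, kb, negative upstream), 1 panel per gene and 1 symbol per library, with ticks at the bottom for KO-only (red) and WT-only (blue) regions. The strong regions are shared, and the ticks stand at weak peaks; at the Lef1 region 52.9 kb upstream and the Satb1 region 70.8 kb upstream the WT symbols (11.9 to 14.3) stand above the KO symbols (4.42 to 7.45).

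Lef1 (chr3:131110297-131224357, plus strand) had 13 shared regions and held 1 of the widest separations among the 36. At the region 52.9 kb upstream (chr3:131056972-131057729) the fold enrichments were 5.07 and 7.45 in KO-1 and KO-2, against 12.6 and 14.3 in WT-1 and WT-2. The percentiles were 48.9 and 41.6 in the KO libraries, against 82.5 and 88.3 in the WT libraries. The groups were 33.6 points apart at their nearest, and 0.692% of all shared regions had a gap as large with WT higher. The mean percentile was 45.3 ± 5.16 in KO and 85.4 ± 4.06 in WT (SD, n = 2 each). The opposite order was seen 29.4 kb inside the gene (chr3:131139269-131140136), with percentiles of 52.0 and 56.5 in the KO libraries, against 25.9 and 34.8 in the WT libraries, a gap reached by 4.04% of all shared regions. A region 15.8 kb inside (chr3:131125778-131126444) had 16.8 and 36.4 in the KO libraries, against 11.6 and 8.14 in the WT libraries.

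Other strong Lef1 regions ranked high in all 4 libraries. The region 90.8 kb upstream (chr3:131018944-131020145) had percentiles of 85.4 and 87.8 in the KO libraries, against 85.2 and 85.3 in the WT libraries; it counts among the KO-higher regions by 0.0968 points only, and the order turned when regions were ranked by −log10 q (−3.72 points, KO minus WT) or within the whole list (−0.46 points). The region 98.3 kb inside the gene (chr3:131207910-131209284) had 84.8 and 90.3 in the KO libraries, against 85.6 and 73.0 in the WT libraries. At the gene's beginning the libraries placed their peaks downstream of the first start. A peak over start 1 and over start 2, 26 bases after it, was found in WT-1 alone, with a fold of 2.10 (chr3:131110173-131110375). Start 3, 2494 bp further on, was covered in all 4 libraries (chr3:131111720-131112865), with folds of 5.68 and 7.15 in KO-1 and KO-2, against 5.43 and 5.54 in WT-1 and WT-2, and percentiles of 55.9 and 38.9 in the KO libraries against 36.9 and 36.6 in the WT libraries. Relative to start 3 the summit lay at −378 bp in KO-1 and −709 bp in KO-2, against −704 bp in WT-1 and −696 bp in WT-2. All lie before the printed window, and KO-1 stood apart. Weak shared regions on either side went opposite ways. The region 1.0 kb after the first start had percentiles of 0.153 and 0.30 in the KO libraries, against 7.93 and 1.98 in the WT libraries. At 2.9 kb they were 7.08 and 2.40, against 0.231 and 0.0968. Start 4, whose window holds both TCF and LEF core matches, was covered in none.

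Lef1 had 4 WT-only and no KO-only regions. Those inside the gene lay 43.8 kb (chr3:131154005-131154280; folds 3.52 in WT-1 and 2.83 in WT-2), 57.6 kb (chr3:131167775-131168033; 2.88 and 2.87) and 80.5 kb (chr3:131190742-131190950; 2.60 and 2.97) from the first start. The fourth lay 117.9 kb from it, beyond the gene's end (chr3:131227978-131228382; 2.60 and 3.37). Next to the first of these, at 44.5 kb, another region had a peak in KO-1, KO-2 and WT-2.

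**Figure D4:**
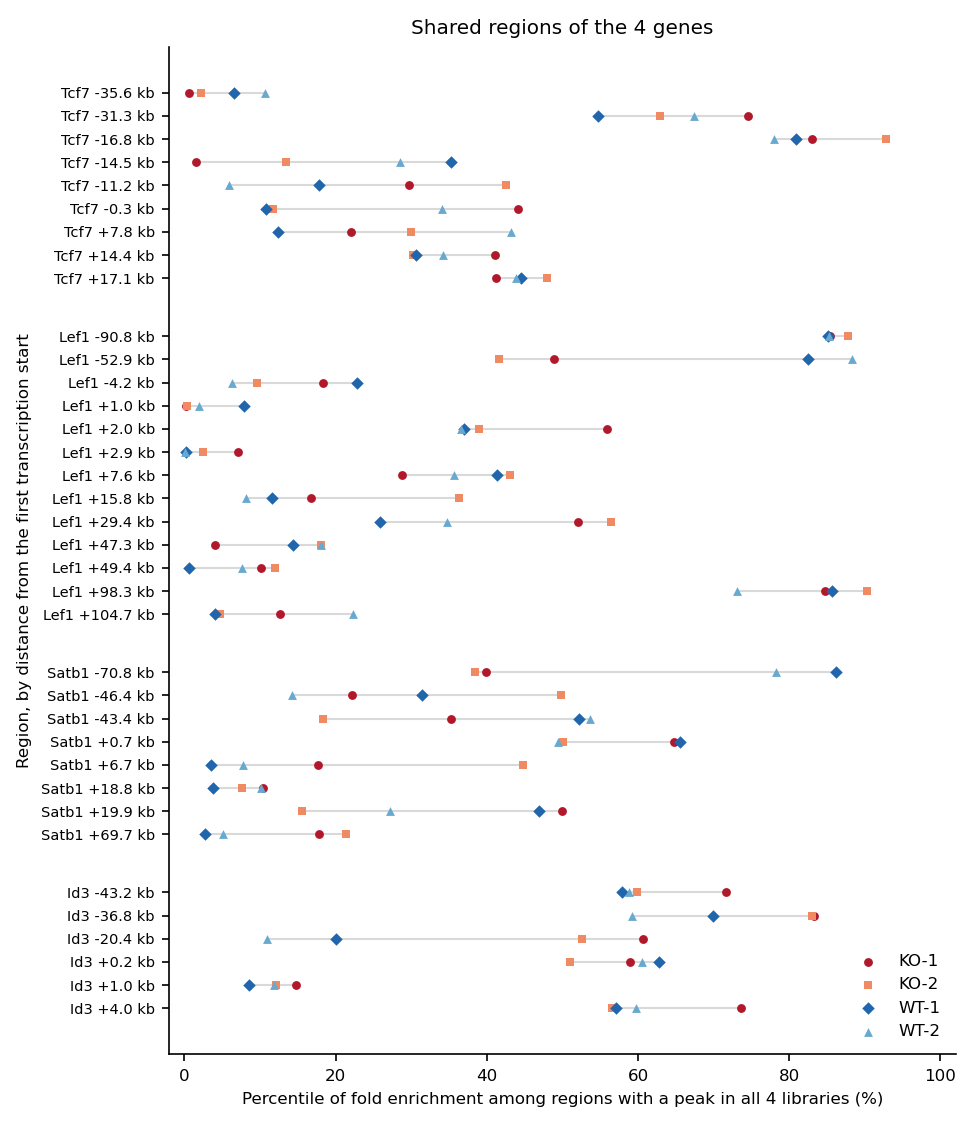
Percentile of the deposited fold enrichment among all regions with a peak in 4 libraries (x axis, %), for the 36 shared regions of the 4 genes (y axis, by gene and distance from the first start in kb), 1 symbol per library and a grey line over their range. The symbols lie close together at Lef1 90.8 kb upstream (85.2 to 87.8), and the widest split is at Satb1 70.8 kb upstream, with KO at 38.4 and 39.9 and WT at 78.2 and 86.2.

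Satb1 (chr17:51736187-51833290, minus strand) had 8 shared regions, and its 2 largest separations lay upstream with WT higher. At the region 70.8 kb upstream (chr17:51903693-51904430), which overlaps the interval of the lncRNA gene Gm20098, the fold enrichments were 4.42 and 7.08 in KO-1 and KO-2, against 13.4 and 11.9 in WT-1 and WT-2. Percentiles were 39.9 and 38.4 in the KO libraries, against 86.2 and 78.2 in the WT libraries. The gap of 38.3 points was the widest among the 36 regions, and 0.428% of all shared regions had one as large with WT higher. The mean percentile was 39.2 ± 1.05 in KO and 82.2 ± 5.62 in WT (SD, n = 2 each). The region 43.4 kb upstream (chr17:51876267-51877104) had percentiles of 35.3 and 18.4 in the KO libraries, against 52.1 and 53.7 in the WT libraries, a gap reached by 3.49%.

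Both Satb1 regions with KO higher lay within the gene. The region over start 3, 6.7 kb from the first (chr17:51826415-51826839), had folds of 3.27 and 7.86 in KO-1 and KO-2, against 2.87 and 3.24 in WT-1 and WT-2. Its percentiles were 17.6 and 44.8 in the KO libraries, against 3.56 and 7.75 in the WT libraries, a gap reached by 8.19% of all shared regions. The summits lay at −24 and −62 bp from that start in KO-1 and KO-2, against −169 and −80 bp in WT-1 and WT-2, within the printed window with its 3 E boxes. The region 69.7 kb inside the gene (chr17:51763286-51763978) had percentiles of 17.8 and 21.3 in the KO libraries, against 2.66 and 5.12 in the WT libraries, a gap reached by 6.20%. By contrast the main start region (chr17:51831488-51833646), which covers starts 1 and 2, overlapped between the genotypes, with folds of 6.68 and 8.58 in KO-1 and KO-2, against 9.07 and 6.88 in WT-1 and WT-2, and percentiles of 64.7 and 50.0 in the KO libraries against 65.5 and 49.4 in the WT libraries. Starts 4 and 5 had no peak. The KO-only regions lay 22.1 kb upstream (chr17:51855365-51855514; folds 2.78 in KO-1 and 3.26 in KO-2) and 73.3 kb upstream (chr17:51906386-51906700; 2.78 and 3.46). The WT-only region lay 48.2 kb inside the gene (chr17:51784940-51785245; 2.60 in WT-1 and 3.60 in WT-2).

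Id3 (chr4:136143822-136145392, plus strand) is the shortest of the 4 genes and had 6 shared regions, of which 4 ranked higher in KO. The clearest was 20.4 kb upstream (chr4:136122913-136123943), with fold enrichments of 6.19 and 8.94 in KO-1 and KO-2, against 4.13 and 3.52 in WT-1 and WT-2. Its percentiles were 60.7 and 52.6 in the KO libraries, against 20.0 and 11.0 in the WT libraries. The groups were 32.7 points apart at their nearest, and 0.808% of all shared regions had a gap as large with KO higher. The mean percentile was 56.7 ± 5.69 in KO and 15.5 ± 6.38 in WT (SD, n = 2 each). The region 36.8 kb upstream (chr4:136106513-136107573) was stronger in all libraries, with percentiles of 83.3 and 83.0 in the KO libraries, against 69.9 and 59.2 in the WT libraries, a gap reached by 5.98%. The region 43.2 kb upstream (chr4:136100036-136101122) had 71.6 and 59.9 in the KO libraries, against 57.8 and 58.8 in the WT libraries, with the nearest libraries 1.06 points apart.

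The Id3 start itself ranked higher in WT by a small margin. Folds over the start (chr4:136143542-136144506) were 6.0 and 8.71 in KO-1 and KO-2, against 8.60 and 8.41 in WT-1 and WT-2, and percentiles were 58.9 and 51.1 in the KO libraries, against 62.8 and 60.6 in the WT libraries. Its gap of 1.63 points was reached by 19.2% of all shared regions. The summit lay at 14 and −55 bp from the start in KO-1 and KO-2, against −42 and −58 bp in WT-1 and WT-2. A region 1.0 kb after the start (chr4:136144623-136144927) counted as KO-higher by 0.264 points, and the order turned when regions were ranked by −log10 q (−0.61 points, KO minus WT). The region 4.0 kb after the start, beyond the gene's end (chr4:136147527-136148188), overlapped, with 73.7 and 56.5 in the KO libraries against 57.1 and 59.7 in the WT libraries. The WT-only region lay 3.4 kb upstream (chr4:136140340-136140534; folds 2.76 in WT-1 and 2.35 in WT-2), over the interval of the lncRNA gene Gm42329. Of the 13 Id3 regions 3 had a peak in WT-2 alone, all between 14.2 and 16.3 kb upstream.

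The widest gaps among the 36 were thus those at Satb1 70.8 kb upstream and Lef1 52.9 kb upstream with WT higher, and at Id3 20.4 kb upstream with KO higher. These regions were picked for groups that lay far apart, so leaving out any single library could hardly turn the sign. Such runs therefore show only how far the size of the difference in mean percentile moved. It ran from −45.7 to −36.8 points at Satb1, from −40.9 to −35.3 at Lef1 and from 35.8 to 45.1 at Id3. The libraries that are lower at the first 2 are also the libraries with fewer peaks at B cell and myeloid markers, and the part of those cells in these regions was not tested.

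Genes that work with the 4 were described from gene lists, by the same counts. Of the 17 partners of TCF and LEF proteins (Tcf7l2, Ctnnb1, the Tle corepressors, Axin, Bcl9 and Pygo genes and others), 16 had a region and Pygo1 had none. Their 155 regions held 4 KO-only (2.58%, against 1.78% of all regions) and 16 WT-only (10.3%, against 8.80%) regions. Of 50 shared regions 15 ranked higher in KO (30.0%, against 22.0% of all shared regions) and 8 in WT (16%, against 24.0%). Tle3, a corepressor of TCF and LEF proteins, led with 1 KO-only (3.57%) and 5 WT-only (17.9%) of 28 regions. It was followed by Bcl9 with 0 and 3 (20.0%) of 15 and Bcl9l with 0 and 2 (15.4%) of 13, both coactivators that bind β-catenin. Ctnnb1, the gene of β-catenin, had 0 and 1 (11.1%) of 9, and Tcf7l2, the TCF-4 gene of the family, had 1 (6.67%) and 2 (13.3%) of 15. The WT-only share of this list was near the background of 8.80%.

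Among the Id and E proteins Tcf4 held 8 of the 17 WT-only regions, but also 29 of the 70 regions. Of 6 genes 5 had a region, and Id4 had none. Their 70 regions held 3 KO-only (4.29%, against 1.78% of all regions) and 17 WT-only (24.3%, against 8.80%) regions, so both shares were above those of all regions. Of 18 shared regions, 1 ranked higher in KO (5.56%, against 22.0%) and 8 in WT (44.4%, against 24.0%). Tcf4, the E2-2 gene, which is used by B and plasmacytoid dendritic cells, gave 0 KO-only regions and 8 of the 17 WT-only regions, and its 29 regions had 6 and 6 peaks in the KO libraries, against 20 and 20 in the WT libraries. Tcf12, the HEB gene, had 1 (5.56%) and 4 (22.2%) of 18, Tcf3, the E2A gene, 0 and 2 (40.0%) of 5, and Id2 2 (15.4%) and 3 (23.1%) of 13. The WT-only shares of Tcf12, Tcf3 and Id2 were thus also above the 8.80% of all regions, while Id1 had 0 WT-only of 5 regions. Id2 had the same number of regions with a peak in every library, 9 of 13, though not always the same regions. E proteins are also basic factors of B cells, and the B cell markers held 1 KO-only and 61 WT-only of 125 regions; the part of such cells in this list was not tested.

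The 20 other naive and memory state genes (521 regions) held 15 KO-only (2.88%) and 58 WT-only (11.1%) regions, against 1.78% and 8.80% of all regions. Of 175 shared regions 60 ranked higher in KO (34.3%) and 35 in WT (20.0%), against 22.0% and 24.0% of all shared regions. The 4 genes of this list with the largest difference leaned to WT. Foxp1, a quiescence factor, had 1 KO-only (0.877%) and 15 WT-only (13.2%) of 114 regions, and Bach2, which holds back effector genes, had 5 (6.58%) and 11 (14.5%) of 76. Ets1 had 0 KO-only and 10 WT-only (18.2%) of 55 regions, and Foxo1, which drives Il7r, had 0 and 6 (19.4%) of 31. At each of these genes more shared regions ranked higher in KO than in WT. At Bach2 13 of 26 shared regions ranked higher in KO (50.0%) and 2 in WT (7.69%). Foxp1 had 9 and 6 of 27, Ets1 7 and 5 of 20, and Foxo1 3 and 2 of 10. Bcl11b and Actn1, both chosen after their values were seen, had more KO-only than WT-only regions. Bcl11b, a factor that keeps T cell identity, had 4 KO-only (9.76%) and 1 WT-only (2.44%) of 41 regions. Actn1 had 2 (14.3%) and 0 of 14. The opposing effector factors did not run the other way as a list: their 213 regions held 13 KO-only (6.10%) and 31 WT-only (14.6%) regions. Of 65 shared regions 26 ranked higher in KO (40.0%, against 22.0% of all shared regions) and 14 in WT (21.5%, against 24.0%). Zeb2 had 0 KO-only and 8 WT-only (29.6%) of 27 regions, Bhlhe40 0 and 6 (35.3%) of 17, and Runx3 0 and 3 (10.0%) of 30. Tox, the gene in which the KO cells are labelled deficient, had 7 (12.3%) and 1 (1.75%) of 57. Tox thus gave 7 of the 13 KO-only regions of the list. It also gave 12 of the 26 KO-higher shared regions and 1 of the 14 WT-higher ones. T cell markers gave 13 KO-only (8.39%) and 10 WT-only (6.45%) of 155 regions. Of 52 shared regions 16 ranked higher in KO (30.8%, against 22.0% of all shared regions) and 8 in WT (15.4%, against 24.0%). The TCF and LEF partner, naive, effector and T cell marker lists thus all had more shared regions ranked higher in KO than in WT, as the 4 genes did. In the effector list this rested largely on Tox. No test compares the lists.

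**Figure D5:**
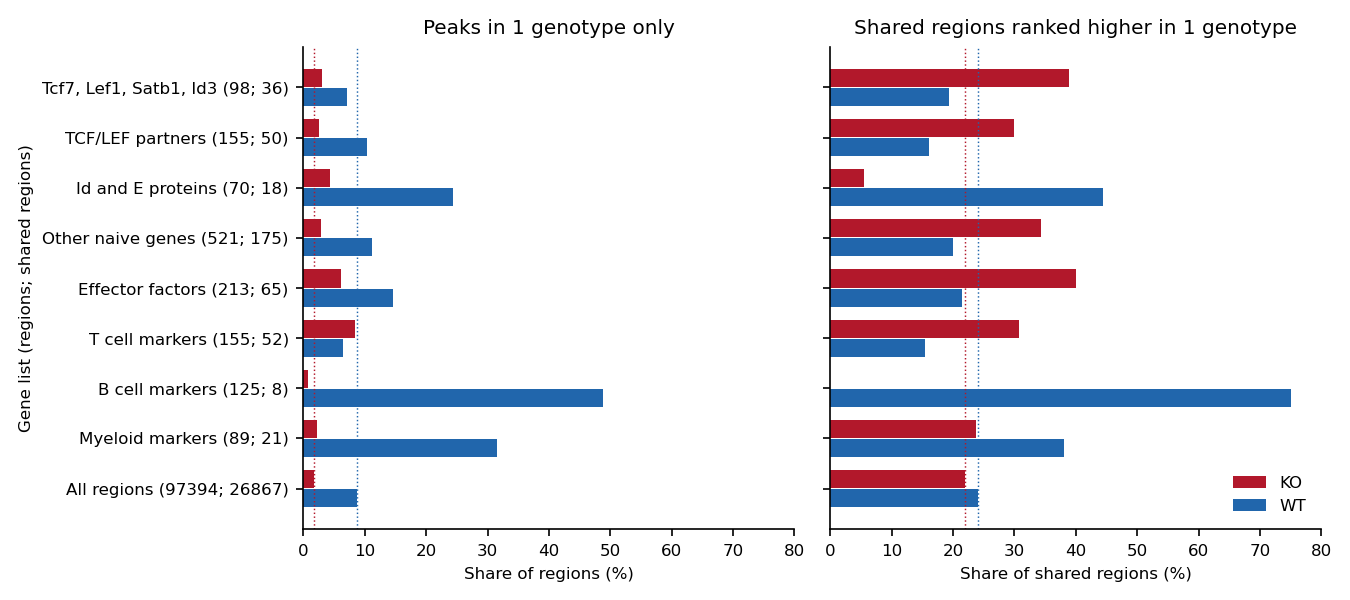
Share of regions with a peak in both libraries of 1 genotype only (left, % of regions) and share of shared regions that ranked higher in both libraries of 1 genotype (right, % of shared regions), for the 4 genes, the gene lists and all regions (bottom), red for KO and blue for WT, with the shares over all regions as dotted lines. The 4 genes have a longer red than blue bar on the right (38.9% and 19.4%), as have the TCF and LEF partner, naive, effector and T cell lists, while the Id and E protein, B cell and myeloid lists have the longer blue bar in both panels.

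Genes with a pattern most like each member were taken from those with a number of regions within 25% of it, by the distance between the 4 shares of regions with a peak, 1 per library. For Tcf7 these were Vps13d (4.47 points), Bicra (6.74) and B3gnt2 (8.50) of 472 genes. For Lef1 they were Bcor (5.43), Ctif (6.80) and Arhgap15 (7.62) of 222 genes. For Satb1 they were Cd28, the costimulatory receptor gene (5.94), Ets2 (9.08) and Peli1 (11.4) of 402 genes, and for Id3 Baz1a (3.35), Cxcr5 (7.20) and Arhgef2 (8.57) of 1326 genes. A likeness over 4 libraries says only that these genes had peaks in similar shares of their regions.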

How the data were processed

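Peak lists of 4 ATAC-seq libraries (2 KO, 2 WT) were used, 1 per library in the layout of narrow peaks. The submitters' processing notes name MACS2, BWA, Picard, SAMtools and deepTools and the build GRCm38; for versions, settings and any shift of reads, they are silent (not given in the sources used here). The authors' fold enrichment is the ratio between a peak and its own library's background, and their deposited −log10 p and q rate it against that background. Their deposited −log10 q started at 2.00 in every library, and the deposited score was not used. Depth cannot be given without read numbers, so there are no counting intervals, and a weak peak missing from KO-1, the shortest list, may be a matter of depth, which was not tested.

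Peaks overlapping by at least 1 bp were merged and given to the nearest protein-coding interval of RefSeq (GRCm38.p6) within 100 kb; 82778 of 97394 regions and 16537 genes were matched. Starts and promoter sequences came from a RefSeq table, and the Tcf7 starts in it lie inside the gene's interval. Exons, introns and UTRs were not used. Positions are 1-based. Shared regions were ranked by fold enrichment within each library, and presence was compared by an exact two-sided permutation test over libraries. Lists are described by counts beside those of all regions, without a test. The merging, classing and ranking were tested on simulated peak lists. The members and gene lists were chosen with earlier results of these data known. Named by rule were the 4 genes, the start, KO-only and WT-only regions and the 3 strongest shared regions of each, Tox, Tcf3, Tcf12, Id2 and Ctnnb1, and at most 4 genes a list with 2 or more KO-only or WT-only regions, by largest difference; other regions were named after their values were seen. Replicate numbers were not used to pair the libraries in the main test, since the labels give only a number. Alternatives were stricter peaks, equal list length, other joining and assignment rules, other rankings, each library left out and a replicate block. Python 3.11 was used.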

Additional observations from a re-analysis of the deposited data

How the results depend on the processing

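The count of KO-only regions, 3 in the report, was 1 of 58 with peaks of −log10 q of at least 5 (1.72%, against 2.19% of all regions). It was 2 of 39 at 10 (5.13%, against 1.85%) and 3 of 28 among the 20000 strongest peaks of each library (10.7%, against 6.77%). When all regions within 100 kb of a member were taken, the KO-only count was 5 of 158 (3.16%, against 1.78%), and it ranged from 5 to 19 when 1 library was left out. The WT-only count, 7 in the report, was 2 of 58 (3.45%, against 13.5% of all regions) at a −log10 q of at least 5, 1 of 39 (2.56%, against 13.2%) at 10 and 0 of 28 (against 8.96%) among the 20000 strongest peaks of each library, and 8 to 18 with 1 library left out. Under these 3 stricter settings the WT-only share was thus below that of all regions by more than in the report (7.14% against 8.80%). The KO minus WT difference in regions with a peak, −1.5 in the report, turned to 2.5 at a −log10 q of at least 10 and to 4.0 among the 20000 strongest peaks, and ran from −8.0 to 5.0 with 1 library left out, with 5.0 without KO replicate 1; the causes were not tested. In the replicate block, which pairs libraries by their number, the difference stayed −1.5 (pairs −7 and 4; exact permutation p = 1.0, smallest possible 0.5). The labels do not say whether same-numbered libraries share more than the number. Deviations of replicate 1 in KO and WT had a correlation of −0.033 across shared regions. That single value cannot show whether the libraries were prepared together. The count of shared regions ranked higher in KO, 14 of 36, was 7 of 25 at a −log10 q of at least 5, 6 of 17 at 10 and 6 of 14 among the 20000 strongest peaks, because fewer regions are then shared; the share over all shared regions was 21.2%, 20.2% and 19.7%. The count ranked higher in WT, 7 of 36, was 4, 2 and 1 under the same settings, where all shared regions had 23.6%, 22.8% and 21.2%, and 15 of 61 (24.6%, against 24.0%) when all regions within 100 kb of a member were taken, and 9 to 14 with 1 library left out. With a library left out, fewer libraries have to fit each class, so these counts grow by construction. Of 256 values for the 21 separated regions, 3 turned sign, in 2 regions: the Lef1 region 90.8 kb upstream with regions ranked by −log10 q (−3.72 points) and within the whole list (−0.46), and the Id3 region 1.0 kb after the start with regions ranked by −log10 q (−0.61). Many of these signs were bound to stay. The 21 regions were chosen because the groups did not overlap, so leaving out a library could hardly turn them. The other assignment rules left their ranks unchanged.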
